A study of Mus musculus with 6 samples.

Results

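The genes described here are 10 genes of the ATF4 integrated stress response, *Atf4*, *Ddit3*, *Ddit4*, *Asns*, *Trib3*, *Chac1*, *Psat1*, *Phgdh*, *Shmt2* and *Stc2*. They were taken by gene name from the 28262 genes counted in Sertoli cells with and without PA1. PA1 is a nuclear protein that associates with the MLL3/4 histone methyltransferases. Sertoli cells, the somatic cells that nurse germ cells in the seminiferous tubule, were isolated from the testes of 20-day-old C57BL/6 mice and kept in primary culture before their total RNA was sequenced. The control group was 3 libraries of Pa1F/F cells, which carry floxed *Pa1* alleles and, by the study's naming, no *Amh-cre*. The knockout group was 3 libraries of Amh-pa1-/- cells, in which the same floxed alleles are deleted by a Cre recombinase under the *Amh* promoter, a promoter active in Sertoli cells. The sources do not say how many mice went into a library, and reads of *Pa1* were not analysed here, so that genotypes rest on the labels. A control that carries *Amh-cre* without floxed alleles is not among these libraries, so the effect of Cre itself cannot be told apart from that of the deletion.

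The integrated stress response is the route by which cells answer amino acid shortage, misfolded protein, viral RNA and heme or mitochondrial stress. Kinases phosphorylate the translation factor eIF2α, general translation falls, and the *Atf4* mRNA is translated more through its upstream reading frames, so that the level of the mRNA and the amount of ATF4 protein need not move together. ATF4 pairs with C/EBP proteins on composite elements in the promoters of genes for amino acid synthesis and transport, tRNA charging, redox balance and feedback, and prolonged signalling brings in CHOP, encoded by *Ddit3*. Sertoli cells use much glucose, and serine can be made from one of its breakdown products and feeds the one-carbon pathway.

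The composite element was looked for by its core TGATGNAA, on either strand, in RefSeq windows of GRCm38.p6 that run from 250 bases before to 50 bases after each start site. Windows were found for all 10 genes, and those of 3 genes held the core, as compared with 4.51% of all 27025 genes in the RefSeq table. The 10 genes were chosen as genes of the ATF4 response, so this share is a description and not a test. The 3 stretches are shown because the same 3 genes were low together in 1 library of each genotype, as described below. They are printed 5′ to 3′ on the strand of the gene, with the matched letters in capitals. The core reads forward in *Asns* and in reverse in *Chac1* and *Trib3*.

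Asns: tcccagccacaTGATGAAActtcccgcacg

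Chac1: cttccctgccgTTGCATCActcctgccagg

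Trib3: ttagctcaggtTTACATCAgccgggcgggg

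The *Asns* stretch lies at chr6:7693214-7693243 on the minus strand, with the core starting 23 bases before the start site. The *Chac1* stretch lies at chr2:119351038-119351067 on the plus strand, with the core starting 193 bases before the start site. The *Trib3* stretch lies at chr2:152344028-152344057 on the minus strand, and its core starts at base 15 of the transcribed sequence. The ER stress response element, CCAAT followed after 9 bases by CCACG and searched on both strands, was in the windows of 0 of the 10 genes and of 0.137% of all genes. A match to letters is not evidence of binding, and elements outside these windows were not searched.

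Total counts ranged from 14051353 to 16231443 in control and from 13203757 to 15247587 in knockout libraries. All 10 genes had at least 10 counts in each of the 6 libraries and were among the 14919 genes tested. The libraries of a genotype were unevenly spaced. The median absolute log2 difference between control replicates 1 and 3 was 0.08, as compared with 0.12 and 0.13 for the pairs with replicate 2, and between knockout replicates 1 and 2 it was 0.07, as compared with 0.19 for both pairs with replicate 3. Control replicate 2 and knockout replicate 3 therefore stood apart, and results that rest on them are given with and without them. The summed level of 20 Sertoli cell markers lay between 19584 and 19937 CPM (counts scaled to the library total) in control and between 13474 and 16638 CPM in knockout libraries, and *Sox9*, *Wt1* and *Gata4* had at least 3166 counts in every library. Most of this sum was *Clu* (clusterin), which was lower in knockout cells (log2 fold change -0.69), and the 18 tested markers did not move in 1 direction, with 2 higher (*Dmrt1* and *Vim*), 6 lower (*Clu*, *Gata4*, *Inha*, *Gja1*, *Gdnf* and *Aard*) and 10 that did not pass, *Sox9* and *Wt1* among them. Of the 20 markers, *Rhox5* had at most 16 and *Trf* at most 6 counts. Markers of other cells also moved with genotype. The 7 Leydig cell markers summed to between 786 and 909 CPM in control and between 163 and 295 CPM in knockout libraries, with *Cyp17a1*, *Hsd3b6* and *Insl3* at no more than 4 counts in any library. *Star* and *Cyp11a1* had the most counts of the 7 in every library. All 3 tested Leydig cell markers were lower, *Cyp11a1* (log2 fold change -3.59), *Hsd3b1* (-1.99) and *Star* (-1.59). The 6 peritubular myoid markers summed to between 219.7 and 283 CPM in control and between 819 and 1301 CPM in knockout libraries, but most of this sum was *Acta2* (smooth muscle actin), the 1 called gene of the 5 tested (log2 fold change 2.15). *Myh11*, *Cnn1*, *Des* and *Actg2* did not pass the test, and knockout replicate 3 stood far above the other libraries in them, with 1605 normalized counts of *Myh11* as compared with 216 and 164 in knockout replicates 1 and 2 and between 481 and 649 in control libraries. The sums of 10 macrophage markers were between 128 and 140.3 CPM in control and between 78.3 and 93.2 CPM in knockout libraries. *Mrc1* had the most counts of the 10 in every library and did not pass (log2 fold change 0.17), whereas 7 of the 9 tested macrophage markers were more than 2-fold lower, *Lyz2* (log2 fold change -3.26), *Adgre1* (-3.38) and *Ptprc* (-2.78) among them, and *Adgre1* and *Ptprc* had at most 5 counts in any knockout library. Sums for the 6 endothelial markers were between 116 and 121 CPM in control and between 63.1 and 104 CPM in knockout libraries. *Cdh5* had the most counts of them in every library. Of the 4 tested, *Cdh5* (log2 fold change -0.87) and *Pecam1* (-1.73) were lower, *Vwf* (1.63) was higher and *Kdr* did not pass. The 12 germ cell markers summed to between 6.32 and 9.47 CPM in control and between 2.69 and 8.39 CPM in knockout libraries. Of the 4 tested, *Ddx4*, *Gfra1* and *Kit* were more than 2-fold lower, with at most 46 counts in any library. The part of these cells in the results was not tested, and in bulk RNA fewer cells of a type and less RNA per cell cannot be told apart.

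Levels were compared between the 10 genes per length, and their order rests partly on the length used. The values are RPKM, that is, CPM per kilobase of the merged exons of a gene in GENCODE vM39, an annotation later than the one counted. Merged exons hold those of all isoforms and overstate the length of a long gene model, with 11709 bases for *Asns* as compared with 4901 in its canonical transcript and 5579 for *Ddit3* as compared with 979, so the order was also taken over canonical transcripts, a setting added after the values were seen. *Atf4* was first with either length, with 87.3 ± 13.2 RPKM in control and 83.6 ± 3.67 in knockout cells (SD, n = 3 each), although over canonical transcripts its range in knockout cells overlapped that of *Psat1*. *Stc2* was last with either length, at 1.49 ± 0.359 and 0.585 ± 0.210 RPKM (SD, n = 3 each), and did not overlap with the next gene. In between, control cells had 39.0 ± 1.18 RPKM of *Ddit4*, 29.3 ± 5.96 of *Phgdh* and 25.6 ± 5.29 of *Psat1* (SD, n = 3 each). The ranges of *Phgdh* and *Psat1* overlapped and their order turned over canonical transcripts, where *Ddit4* also overlapped with *Psat1*. *Shmt2* and *Asns* followed at 12.7 ± 2.10 and 8.77 ± 2.09 RPKM (SD, n = 3 each), apart over merged exons and overlapping over canonical transcripts. *Trib3* at 4.76 ± 1.60, *Ddit3* at 3.12 ± 0.372 and *Chac1* at 3.12 ± 1.12 RPKM (SD, n = 3 each) overlapped with each other, and *Ddit3* moved above *Trib3* over canonical transcripts. In knockout cells *Psat1*, at 50.3 ± 6.21 RPKM, and *Phgdh*, at 43.1 ± 5.96 RPKM, were above *Ddit4* at 22.7 ± 0.182 RPKM (SD, n = 3 each) with either length, without overlap.

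The 10 genes did not move in 1 direction. The mRNAs of *Atf4* and *Ddit3*, its transcription factors, did not pass the test, whereas *Psat1* and *Phgdh*, which make serine, rose and *Ddit4* and *Stc2* fell in knockout cells. With the quasi-likelihood test of edgeR and p-values adjusted after Benjamini and Hochberg over all tested genes, 2 of the 10 genes were higher and 2 were lower at an adjusted p-value under 0.05, as compared with 18.2% and 17.1% of all tested genes. At the study's rule, which also asks for a fold change past 1 on the log2 scale, 0 of the 10 genes were called higher and 1, *Stc2*, was called lower, as compared with 5.44% and 6.56% of all tested genes (12% in either direction). Control and knockout replicates did not overlap for 4 of the 10 genes and for 52.4% of all tested genes, with 2 higher and 2 lower as compared with 26.3% and 26.1%. These shares lie near or below the background. For each of the 4 genes without overlap an exact two-sided permutation test gave p = 0.1, the smallest value that 3 against 3 allows. The median log2 fold change of the 10 genes was 0.08, and that of all tested genes was 0.00.

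**Figure D1:**
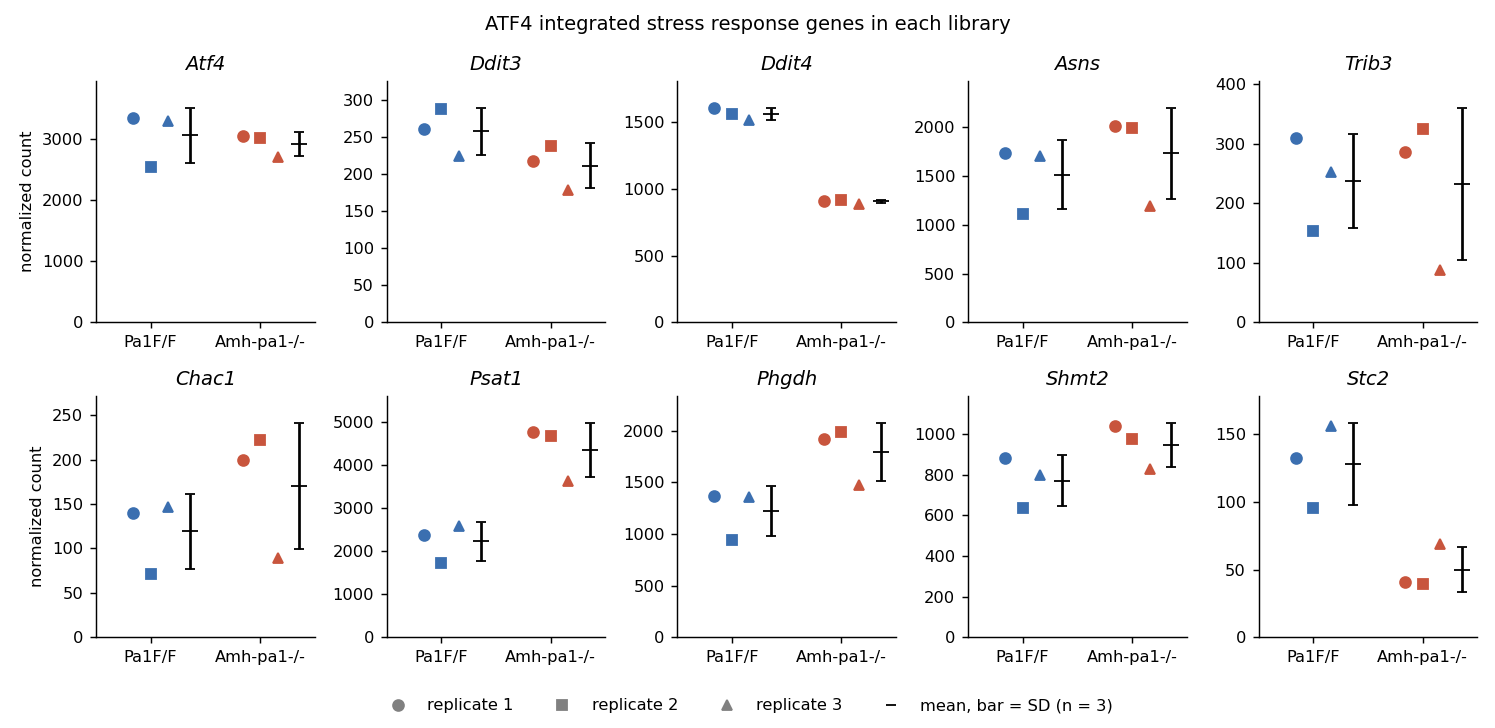
Normalized count (linear axis from 0) of each of the 10 genes in the 3 Pa1F/F libraries (blue) and the 3 Amh-pa1-/- libraries (red), with the marker shape giving the replicate and black bars the mean ± SD (n = 3). *Ddit4* separates the genotypes with the smallest spread, and *Asns*, *Trib3* and *Chac1* are lowest in replicate 2 of the control and replicate 3 of the knockout.

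*Atf4* (ENSMUSG00000042406, chromosome 15 of GRCm38, from 80255184 to 80257540) encodes the leucine zipper factor that directs the response. Its normalized counts, which are counts scaled by the effective library size, were 3344, 2543 and 3294 in control replicates 1, 2 and 3, and 3044, 3010.1 and 2700.3 in knockout replicates 1, 2 and 3. All knockout replicates lay within the range of the control replicates. Its log2 fold change was -0.07 (95% interval from -0.34 to 0.20, adjusted p = 0.673 from edgeR's test). *Ddit3* (ENSMUSG00000025408, chromosome 10, from 127290774 to 127296288), which encodes CHOP, had 260.1, 288 and 224 normalized counts in control and 218, 238 and 178 in knockout replicates. The groups overlapped, with a log2 fold change of -0.29 (95% interval from -0.63 to 0.06, adjusted p = 0.174 from edgeR's test). *Ddit3* overlaps *Mars* (methionyl-tRNA synthetase) and *Gm4189* on the other strand, and since the strand setting of the counting is not given in the sources used here, some of its reads may be shared.

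*Psat1* and *Phgdh* encode enzymes of the pathway that makes serine from the glycolytic intermediate 3-phosphoglycerate. *Psat1* (ENSMUSG00000024640, chromosome 19, from 15904678 to 15947337), phosphoserine aminotransferase, had 2369, 1723 and 2589 normalized counts in control replicates and 4756, 4674 and 3635 in knockout replicates. The lowest knockout replicate was above the highest control replicate. Its mean was 1.96-fold higher, from 2227 ± 450.0 to 4355 ± 625 (SD, n = 3 each, log2 fold change 0.97, SE 0.17, edgeR's test, adjusted p = 0.00583). Without control replicate 1, control replicate 3 or knockout replicate 3 its log2 fold change was 1.02, 1.09 or 1.08, past the fold threshold, and in the other fits without 1 library it was between 0.81 and 0.93. *Phgdh* (ENSMUSG00000053398, chromosome 3, from 98313170 to 98339990), which catalyses the first step, had 1372, 942 and 1354 normalized counts in control and 1925, 1991 and 1471 in knockout replicates. The groups did not overlap, although knockout replicate 3 was close to control replicate 1. *Phgdh* was 1.47-fold higher (log2 fold change 0.55, SE 0.17, edgeR's test, adjusted p = 0.0466). This call was at the threshold and was lost with most libraries left out in turn. The adjusted p-value in edgeR's test was 0.0731, 0.0790 and 0.0774 without control replicates 1, 2 and 3, 0.126 and 0.124 without knockout replicates 1 and 2, and 0.0110 without knockout replicate 3. A processed pseudogene with 95.2% identity to *Phgdh*, *Gm7901*, had between 5 and 17 counts.

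The last enzyme of the serine pathway, phosphoserine phosphatase, is encoded by *Psph*, which was added for completeness after its values were seen. It had 309 ± 78.6 normalized counts in control and 273 ± 53.8 in knockout cells (SD, n = 3 each, log2 fold change -0.18, edgeR's test, adjusted p = 0.582). *Shmt2* (ENSMUSG00000025403, chromosome 10, from 127517123 to 127522444), the mitochondrial enzyme that splits serine into glycine and a one-carbon unit, had 879, 636 and 796 normalized counts in control and 1039, 972 and 825 in knockout replicates. Knockout replicate 3 lay below control replicate 1. The log2 fold change was 0.29 (95% interval from -0.04 to 0.63, adjusted p = 0.144 from edgeR's test), and without knockout replicate 3 it was 0.39 (adjusted p = 0.0498 from edgeR's test). Over the 15 alternative fits the log2 fold change of *Shmt2* ran from 0.17 to 0.40, and 2 of them called it. *Mthfd1l*, which acts further along the mitochondrial one-carbon pathway, rose from 547 ± 40.2 to 776 ± 8.55 normalized counts (SD, n = 3 each, log2 fold change 0.51, edgeR's test, adjusted p = 0.00320). *Mthfd2*, also named after its values were seen, had 664 ± 161 and 769 ± 146 (SD, n = 3 each, log2 fold change 0.21, edgeR's test, adjusted p = 0.479). Control replicate 2 had 478 normalized counts of *Mthfd2*, as compared with 745 and 769 in control replicates 1 and 3. Over the alternative fits its log2 fold change ran from 0.02 to 0.36.

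*Ddit4* (ENSMUSG00000020108, chromosome 10, from 59949669 to 59951834) encodes REDD1, an inhibitor of mTORC1 that is induced by ATF4, hypoxia and glucocorticoids. Its normalized counts were 1608, 1563 and 1518 in control replicates and 911, 916 and 891 in knockout replicates. The SD was 2.88% of the mean in control and 1.47% in knockout cells, the smallest of the 10 genes in both groups. Its mean was 1.73-fold lower in knockout cells (log2 fold change -0.79, SE 0.05, edgeR's test, adjusted p = 0.000179), and *Ddit4* ranked 132 by p-value among all tested genes. *Stc2* (ENSMUSG00000020303, chromosome 11, from 31357307 to 31370074), which encodes the secreted glycoprotein stanniocalcin-2, had 132, 95.9 and 156 normalized counts in control and 41.0, 39.4 and 69.1 in knockout replicates. Every knockout replicate was below every control replicate, and knockout replicate 3 was the highest of its group. *Stc2* was 2.57-fold lower, from 128 ± 30.4 to 49.9 ± 16.7 (SD, n = 3 each, log2 fold change -1.36, SE 0.29, edgeR's test, adjusted p = 0.0114). It was the least abundant of the 10 genes, with 35 counts in its lowest library.

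*Asns*, *Trib3* and *Chac1*, the genes whose windows hold the core of the composite element, did not pass the test, and their groups overlapped. *Asns* (ENSMUSG00000029752, chromosome 6, from 7675169 to 7693254), asparagine synthetase, had 1736, 1108 and 1703 normalized counts in control replicates and 2016, 1989 and 1196 in knockout replicates. Its log2 fold change was 0.19 (95% interval from -0.39 to 0.78, edgeR's test, adjusted p = 0.575). This change was 0.01 without control replicate 2 (edgeR's test, adjusted p = 0.978) and reached 0.40 among the alternative fits. *Trib3* (ENSMUSG00000032715, chromosome 2, from 152337422 to 152344032), a pseudokinase that feeds back on ATF4 and CHOP, had 309, 153 and 252 normalized counts in control and 286, 324 and 87.2 in knockout replicates. Knockout replicates held both the highest and the lowest value. The log2 fold change was -0.04 (95% interval from -1.17 to 1.10, edgeR's test, adjusted p = 0.962), and its sign turned without control replicate 1 (0.20), control replicate 3 (0.01) or knockout replicate 3 (0.36). *Chac1* (ENSMUSG00000027313, chromosome 2, from 119351229 to 119354381), an enzyme that degrades glutathione, had 140.5, 70.7 and 147 normalized counts in control and 200.1, 222 and 89.2 in knockout replicates. Its log2 fold change was 0.51 (95% interval from -0.44 to 1.46, edgeR's test, adjusted p = 0.358), and it was 0.24 without control replicate 2 and 0.82 without knockout replicate 3 (edgeR's test, adjusted p = 0.664 and 0.0546). The interval of *Trib3* does not exclude a 2-fold change in either direction, and that of *Chac1* does not exclude a 2-fold rise.

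**Figure D2:**
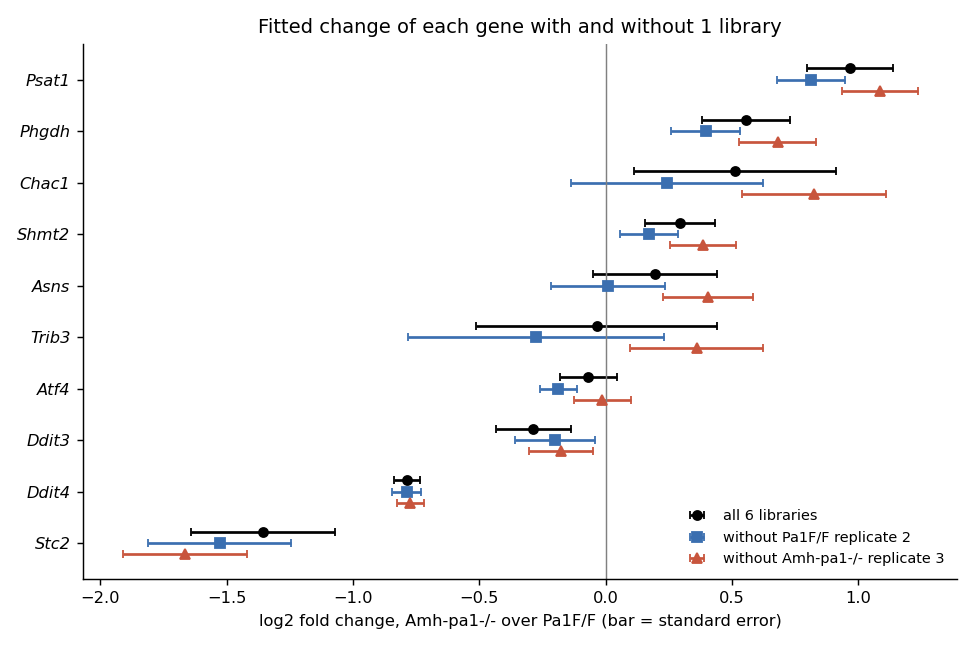
Log2 fold change of each gene, Amh-pa1-/- over Pa1F/F, from edgeR's fit of all 6 libraries (black), without Pa1F/F replicate 2 (blue) and without Amh-pa1-/- replicate 3 (red), with bars for the standard error. *Ddit4* stays near -0.79 in each fit, while *Trib3* changes sign between fits and *Chac1* runs from 0.24 to 0.82.

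The libraries that stood apart were low in most of the 10 genes in both genotypes. On the scale of log2(normalized count + 1), control replicate 2 was below the mean of control replicates 1 and 3 for 8 of the 10 genes, and knockout replicate 3 was below the mean of knockout replicates 1 and 2 for 9 of them, as compared with 49.2% and 48.7% of all tested genes. The exceptions were *Ddit3*, which was 0.25 higher in control replicate 2, *Ddit4*, which was level in it (0.00), and *Stc2*, which was 0.77 higher in knockout replicate 3. In both libraries, 7 of the 10 genes were low, as compared with 27.2% of all tested genes. At a distance of at least 0.5 in both libraries there were 3, *Asns*, *Trib3* and *Chac1*, as compared with 1.88% of all tested genes (5.7% in control replicate 2 and 11% in knockout replicate 3, each taken alone). *Chac1* differed by -1.01 in control replicate 2 and by -1.23 in knockout replicate 3. *Trib3* differed by -0.86 and -1.79, and *Asns* by -0.63 and -0.74. *Psat1* (-0.52 and -0.38), *Phgdh* (-0.53 and -0.41), *Shmt2* (-0.39 and -0.28) and *Atf4* (-0.38 and -0.16) shared the direction with smaller differences. These are differences between single libraries of a genotype, given as a description.

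The enzymes that charge tRNAs with amino acids, many of which are induced by ATF4, were also low in these libraries. Of 20 cytosolic aminoacyl-tRNA synthetases, 15 were low in both libraries, as compared with 27.2% of all tested genes. Their median differences were -0.16 in control replicate 2 and -0.25 in knockout replicate 3, where the medians of all tested genes were 0.00 and 0.01. Among 20 genes of the ER chaperones and of the ATF6 and IRE1-XBP1 branches, 3 were low in both, with medians of 0.04 and 0.06. Of 10 mitochondrial chaperones and proteases, 4 were low in both and 9 in knockout replicate 3 (medians 0.02 and -0.17), and of 18 tested Sertoli cell markers 8 were low in both (medians -0.06 and -0.05). The other lists of the response were low in both libraries to varying degrees, beside the same 27.2% of all tested genes. Of 15 enzymes of serine, one-carbon and related metabolism, 9 were low in both, with lower medians than the synthetases (-0.37 and -0.28). Of 22 other reported ATF4 or CHOP targets, 7 were low in both (medians -0.04 and -0.06), and of 16 genes of the eIF2 list, 6 were (medians -0.02 and 0.07). Of 10 transporters, 5 were low in both (medians -0.14 and -0.08), and of 11 partners and coregulators of ATF4, 5 were (medians -0.12 and -0.09). With the 10 genes left out, 4 of 287 tested genes with the core of the composite element in their RefSeq window (1.39%) were lower by at least 0.5 in both libraries, as compared with 163 of 10274 genes without it (1.59%). The summed peritubular myoid markers were highest of all libraries in knockout replicate 3 (1301 CPM) and lowest of all in control replicate 2 (219.7 CPM). Other markers, named after their values were seen, also set knockout replicate 3 apart, such as *Amh* of the Sertoli cell list, with 365 normalized counts as compared with 43.9 and 48.4 in knockout replicates 1 and 2, and *Kdr* of the endothelial list, with 485 as compared with 80.0 and 74.4. The part of these markers in the differences was not tested.

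**Figure D3:**
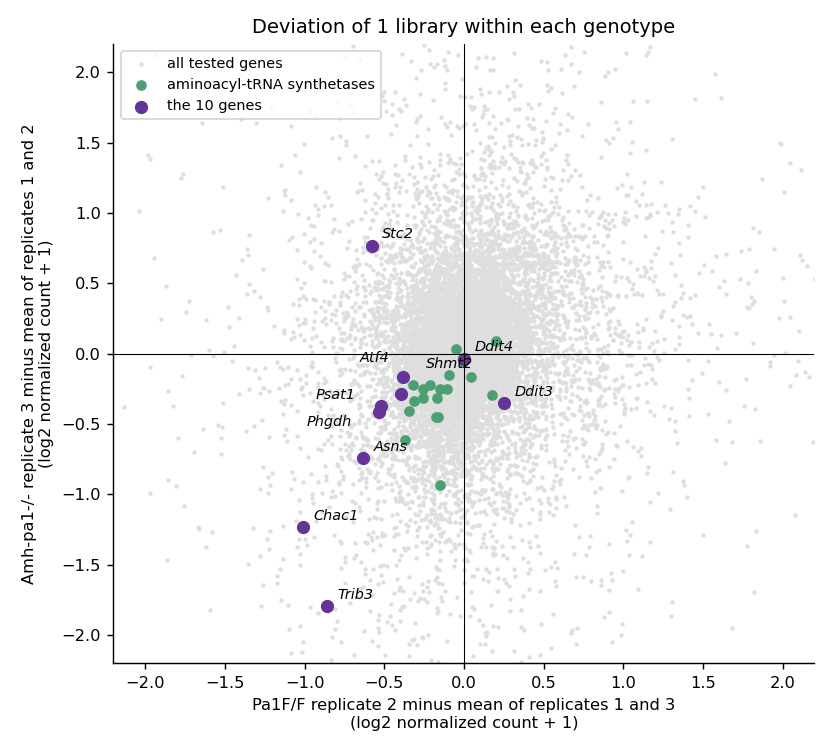
Difference of Pa1F/F replicate 2 from the mean of replicates 1 and 3 (horizontal) against that of Amh-pa1-/- replicate 3 from the mean of replicates 1 and 2 (vertical), in log2(normalized count + 1), for all tested genes within the axes (grey), the aminoacyl-tRNA synthetases (green) and the 10 genes (purple). *Asns*, *Chac1* and *Trib3* lie far into the lower left, where both libraries are low, and *Stc2* lies in the upper left.

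With both of these libraries left out, which was added once the values had been seen and keeps the close pairs, 5 of the 10 genes were higher and 3 were lower, as compared with 28.0% and 27.3% of all tested genes. *Psat1* (log2 fold change 0.93), *Phgdh* (0.52), *Chac1* (0.55), *Shmt2* (0.26) and *Asns* (0.22) were higher and *Stc2* (-1.84), *Ddit4* (-0.78) and *Atf4* (-0.14) were lower. The paper refers to biological replicates and states that its experiments were independently repeated, 3 times or more. The sources do not say whether a close pair came from separate cell preparations, so its small spread may be technical. With the counts of each close pair summed, which leaves 2 libraries of each genotype, *Ddit4* alone passed (edgeR's test, adjusted p = 0.0229). There the adjusted p-value in edgeR's test was 0.0654 for *Psat1*, 0.126 for *Stc2* and 0.178 for *Phgdh*.

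Upstream of ATF4, 2 of the 4 eIF2α kinase mRNAs were lower in knockout cells and the other two did not pass the test, where 17.1% of all tested genes were lower. *Eif2ak1*, which encodes the heme-regulated kinase HRI, fell from 881 ± 45.8 to 662 ± 61.5 normalized counts (SD, n = 3 each, log2 fold change -0.41, edgeR's test, adjusted p = 0.0119). *Eif2ak4*, which encodes GCN2, the sensor of uncharged tRNA, had 854 ± 26.9 and 707 ± 30.2 (SD, n = 3 each, log2 fold change -0.27, edgeR's test, adjusted p = 0.0184), a call that was lost without control replicates 1 or 3 and without knockout replicates 1 or 2 (edgeR's test, adjusted p = 0.0758, 0.0507, 0.0540 and 0.0815). *Eif2ak3*, which encodes the ER stress kinase PERK, had 554 ± 43.3 and 505 ± 30.5 (SD, n = 3 each, log2 fold change -0.13, edgeR's test, adjusted p = 0.280). *Eif2ak2*, which encodes the interferon-inducible kinase PKR, stood at 1014, 3674 and 1109 normalized counts in control replicates and at 1092, 958 and 1284 in knockout replicates. Control replicate 2 was far above the other libraries, and the log2 fold change of -0.80 (edgeR's test, adjusted p = 0.248) turned to 0.07 without it.

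Of 16 tested genes of the kinases, eIF2, its exchange factor eIF2B and its phosphatases, 3 were higher and 5 were lower (18.8% and 31.2%, as compared with 18.2% and 17.1% of all tested genes). *Impact*, an inhibitor of GCN2, fell from 1432 ± 42.7 to 1003 ± 130.1 normalized counts (SD, n = 3 each, log2 fold change -0.51, edgeR's test, adjusted p = 0.00786). *Ppp1r15a*, the inducible phosphatase subunit GADD34 that ends the response, rose from 611 ± 27.6 to 870.3 ± 137 (SD, n = 3 each, log2 fold change 0.51, edgeR's test, adjusted p = 0.0162), and without control replicate 3 its adjusted p-value in edgeR's test was 0.0638. The constitutive subunit *Ppp1r15b* had 1609 ± 105 and 1831 ± 84.3 (SD, n = 3 each, log2 fold change 0.19, edgeR's test, adjusted p = 0.0687, and 0.0346 without knockout replicate 3). The subunits of eIF2B went both ways. *Eif2b5* (log2 fold change 0.41, edgeR's test, adjusted p = 0.00525) and *Eif2b2* (0.30, adjusted p = 0.0204) were higher, and *Eif2b4* (-0.48, adjusted p = 0.0230) and *Eif2b1* (-0.26, adjusted p = 0.0248) were lower. Apart from *Eif2b5*, these calls were lost in 4 to 5 of the 6 fits without 1 library.

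Among leucine zipper partners and coregulators of ATF4, 4 of 11 tested genes were lower (36.4%, as compared with 17.1% of all tested genes) and 7 did not pass. *Nupr1*, a small stress-induced chromatin protein, fell 3.44-fold, from 1917 ± 395 to 557 ± 175 normalized counts (SD, n = 3 each, log2 fold change -1.78, edgeR's test, adjusted p = 0.00289). *Cebpa* fell from 94.0 ± 33.0 to 24.3 ± 4.52 (SD, n = 3 each, log2 fold change -1.95, edgeR's test, adjusted p = 0.00475). *Cebpb*, which lay under the level set for naming genes and was named after its values were seen, fell from 55.4 ± 2.79 to 20.2 ± 1.17 (SD, n = 3 each, log2 fold change -1.45, edgeR's test, adjusted p = 0.00172). *Nfe2l2*, which encodes the antioxidant factor NRF2, was 1.22-fold lower (log2 fold change -0.28, edgeR's test, adjusted p = 0.00898). *Cebpg*, a dimer partner of ATF4 that was also named after its values were seen, had 354 ± 32.1 and 429 ± 11.6 (SD, n = 3 each, log2 fold change 0.28, edgeR's test, adjusted p = 0.0578, and 0.0476 with limma-voom). *Atf3*, named in the same way, had 187, 184 and 152 normalized counts in control and 208, 242 and 762 in knockout replicates. Knockout replicate 3 set its mean, and the log2 fold change of 1.21 (edgeR's test, adjusted p = 0.0990) was 0.37 without that library (adjusted p = 0.0612). DESeq2's Wald test gave *Atf3* an adjusted p-value of 0.0201.

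Of the amino acid transporters that ATF4 induces, 2 of 10 were higher and 3 were lower, beside 18.2% and 17.1% of all tested genes. The subunits of the large neutral amino acid exchanger were both lower. *Slc7a5* (LAT1) fell from 9418 ± 948 to 5383 ± 893 normalized counts (SD, n = 3 each, log2 fold change -0.81, edgeR's test, adjusted p = 0.00523), and *Slc3a2* (4F2hc) from 5737 ± 407 to 4112 ± 206 (SD, n = 3 each, log2 fold change -0.48, edgeR's test, adjusted p = 0.00338). The glycine transporter *Slc6a9* was 1.57-fold lower (edgeR's test, adjusted p = 0.00739), whereas the transporter of serine, alanine and related amino acids *Slc1a4* was 1.59-fold higher (edgeR's test, adjusted p = 0.0120). *Slc7a11*, the cystine transporter, had 116, 428 and 123 normalized counts in control and 83.9, 86.7 and 35.1 in knockout replicates and was named after its values were seen. Its groups did not overlap, but control replicate 2 stood far above, and the log2 fold change of -1.70 (edgeR's test, adjusted p = 0.0684) was -0.80 without it (adjusted p = 0.166). DESeq2's Wald test gave *Slc7a11* an adjusted p-value of 0.00629.

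Enzymes of amino acid and one-carbon metabolism outside the 10 genes were called in 3 of 15 tested genes, 1 higher and 2 lower, while 35.3% of all tested genes were called in either direction. *Gpt2*, the mitochondrial alanine aminotransferase, fell 3.81-fold, from 2118 ± 299 to 556 ± 133 normalized counts (SD, n = 3 each, log2 fold change -1.93, edgeR's test, adjusted p = 0.000760). *Aldh1l1*, a cytosolic enzyme of folate metabolism, fell from 551 ± 118 to 314 ± 53.0 (SD, n = 3 each, log2 fold change -0.81, edgeR's test, adjusted p = 0.0150), and without knockout replicate 2 its adjusted p-value in edgeR's test was 0.0562. Control replicate 2 had 685 normalized counts of *Aldh1l1*, as compared with 461 and 509 in control replicates 1 and 3. Over the alternative fits its log2 fold change ran from -0.95 to -0.53. The third called gene was *Mthfd1l*, given above.

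Of 20 tRNA synthetases, 3 were higher and 3 were lower, all by less than 1.4-fold, and both shares are below those of all tested genes (18.2% and 17.1%). *Farsa* (log2 fold change -0.40, edgeR's test, adjusted p = 0.00527), *Dars* (-0.25, adjusted p = 0.0166), *Hars* (0.30, adjusted p = 0.0126) and *Vars* (0.42, adjusted p = 0.0189) had the largest changes among the 6 that were called. The call of *Hars* was lost without control replicate 3 (edgeR's test, adjusted p = 0.0544), and that of *Dars* without control replicate 1 or knockout replicate 2 (adjusted p = 0.0721 and 0.0726). *Vars* was not called without control replicates 1 or 3 or knockout replicates 1 or 2 (edgeR's test, adjusted p = 0.0659, 0.0726, 0.0670 and 0.0583).

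Other genes that have been reported as ATF4 or CHOP targets were lower in 8 and higher in 2 of the 22 measured (36.4% and 9.09%, where all tested genes gave 17.1% and 18.2%), at a median log2 fold change of -0.28. *Vldlr*, the very low density lipoprotein receptor, fell 3.72-fold, from 401 ± 68.6 to 108 ± 18.8 normalized counts (SD, n = 3 each, log2 fold change -1.90, edgeR's test, adjusted p = 0.000651). *Trib2*, a pseudokinase related to *Trib3*, fell 2.13-fold (log2 fold change -1.09, edgeR's test, adjusted p = 0.0146) and was not called without control replicate 3 or knockout replicate 2 (adjusted p = 0.0549 and 0.0554). *Bcl2l11*, which encodes the pro-apoptotic protein BIM, fell 1.95-fold (log2 fold change -0.96, edgeR's test, adjusted p = 0.0114). Control replicate 2 had 923 normalized counts of *Bcl2l11*, as compared with 542 and 583 in control replicates 1 and 3. Over the alternative fits its log2 fold change ran from -1.10 to -0.68. *Rab32*, a GTPase of lysosome-related organelles, rose 1.99-fold (log2 fold change 0.99, edgeR's test, adjusted p = 0.0217) and was not called without control replicates 1 or 3 or knockout replicates 1 or 2 (edgeR's test, adjusted p = 0.0645, 0.0774, 0.0686 and 0.0561). Over all 94 tested genes of these 6 pathway lists, 11 were higher (11.7%, as compared with 18.2% of all tested genes) and 25 were lower (26.6%, as compared with 17.1%), with a median log2 fold change of -0.12.

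**Figure D4:**
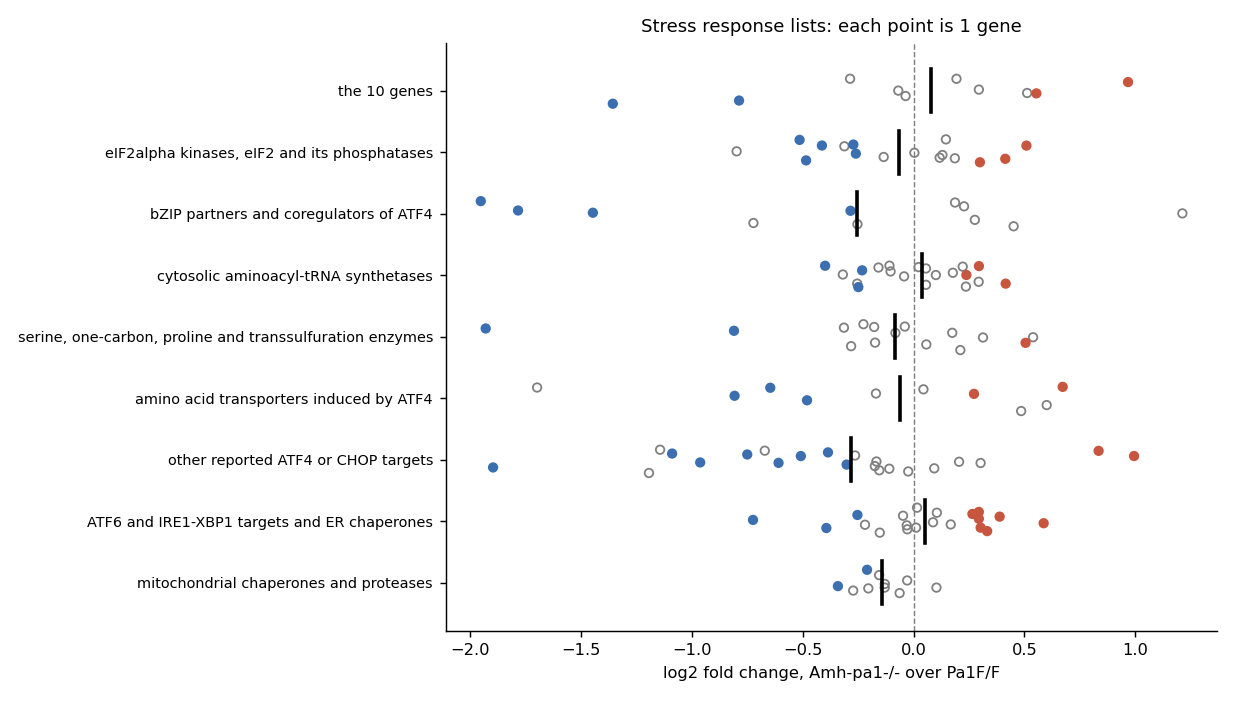
Log2 fold change, Amh-pa1-/- over Pa1F/F, of each tested gene of the 10 genes, of the 6 pathway lists and of 2 comparison lists, with filled points for an adjusted p-value under 0.05 in edgeR's test (red higher, blue lower), open points for the rest, a black bar for the median of each list and a dashed line for the median of all tested genes. Points lie on both sides of 0 in each list, and the list of other reported targets has its median at -0.28.

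The other arms of the unfolded protein response were compared to see whether they moved with the same genes. Of 20 ER chaperones and genes of the ATF6 and IRE1-XBP1 branches, 7 were higher and 3 were lower (beside 18.2% and 17.1% of all tested genes), at a median log2 fold change of 0.05. *Hspa5* (BiP), the main ER chaperone, was named after its values were seen. It had 10740.3 ± 759 and 10534 ± 882 normalized counts (SD, n = 3 each, log2 fold change -0.03, edgeR's test, adjusted p = 0.830), and the sign turned to 0.03 without control replicate 2 or knockout replicate 2. *Xbp1*, the factor that IRE1 activates by splicing, fell from 2072 ± 195 to 1255 ± 150.4 (SD, n = 3 each, log2 fold change -0.72, edgeR's test, adjusted p = 0.00290), and gene counts do not separate its spliced form. *Calr* (log2 fold change -0.39, edgeR's test, adjusted p = 0.00413) was lower, whereas *Sdf2l1* (0.59, adjusted p = 0.00435) and *Creld2* (0.39, adjusted p = 0.00658) were higher. Of 10 mitochondrial chaperones and proteases, 2 were lower, near the 17.1% of all tested genes, and 8 did not pass. *Hspe1* was 1.27-fold lower (log2 fold change -0.34, edgeR's test, adjusted p = 0.0125), and *Afg3l2* was 1.16-fold lower (log2 fold change -0.21, edgeR's test, adjusted p = 0.0172) in a call that was lost without control replicates 1 or 3 or knockout replicates 1 or 2 (adjusted p = 0.0702, 0.0620, 0.0596 and 0.0569). With the close pairs of replicates summed, of the genes named from the pathway and comparison lists only *Nupr1*, *Cebpb*, *Gpt2* and *Vldlr* were called. The marker genes are not reported in this setting.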

How the data were processed

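RNA-seq libraries were made from total RNA of cultured Sertoli cells. Per the paper and the submitters' processing notes, the authors aligned reads to GRCm38 with HISAT2 2.1.0 and counted reads per gene with HTSeq 0.6.0, and deposited these counts as raw values. The strand setting is not given in the sources used here. The deposited table also holds the authors' own comparison (mean, fold change, p-values), which was not used.

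Counts were tested in R 4.3.3 with edgeR 4.0.16 (filterByExpr with a minimum count of 10 and a minimum total of 15, TMM, quasi-likelihood F-test, genotype as the only term), with Benjamini-Hochberg adjustment over 14919 genes. To obtain normalized counts, each count was divided by its library's effective size and brought back to the mean effective size. The standard error is the absolute log2 fold change divided by the square root of F, and 95% intervals use the t distribution with the fit's degrees of freedom. Since TMM assumes that most genes are level, a change common to all mRNAs cannot be seen. RPKM used merged exon lengths of GENCODE vM39, with canonical transcript lengths as an alternative added after the values were seen. The p-values measure the spread between these libraries, which may be technical. The least abundant member had 35 counts in its lowest library. Reads without molecular identifiers are not independent molecules.

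The genes and lists were chosen with earlier results of these data known. Named genes were all 10 members, genes of the eIF2 list, and from each other list the 4 with the largest absolute log2 fold change among those with an adjusted p-value under 0.05 and a mean of at least 50 normalized counts. No list was given a p-value. The steps were tested on simulated counts. Alternatives were DESeq2 1.42.0 (size factors and Wald test), library size only, limma-voom (limma 3.58.1), other filters, the replicate number as a block, each library left out, close pairs summed, and both libraries that stood apart left out.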

Additional observations from a re-analysis of the deposited data

How the results depend on the processing

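Of the 10 genes, 2 were higher, 2 were lower and 1 passed the study's fold threshold in the test as reported. With 1 library left out, 1 to 3 were higher, 2 were lower in each fit, and 1 or 2 passed the fold threshold. DESeq2 size factors and at least 10 counts in every library each left 1 higher gene, *Psat1*, since *Phgdh* moved to an adjusted p-value of 0.0504 and 0.0506 in edgeR's test. With the replicate number as a block 1 was higher, 2 were lower and 1 passed the fold threshold. The numbers did not pair the libraries (correlations of deviations from the group means of 0.11, -0.16 and -0.18 for numbers 1, 2 and 3 over 14919 genes, where control replicate 2 and knockout replicate 3 had the highest of all pairs, 0.21), and the block lowered the calls over all genes from 2718 higher and 2548 lower to 1917 and 1885. With close pairs summed, 0 were higher, 1 was lower and 0 passed the fold threshold in edgeR's test, as compared with 1, 2 and 2 at an unadjusted p-value under 0.05. Without both libraries that stood apart, 5 were higher and 3 were lower. Signs turned for *Atf4* without control replicate 1, for *Trib3* without control replicates 1 (0.20) or 3 (0.01), knockout replicate 3 or both libraries (0.11), for *Eif2ak2* without control replicate 2, and for *Hspa5* without control replicate 2 or knockout replicate 2 (0.03 in each). With 1 library left out, their log2 fold changes ran from -0.19 to 0.0026 for *Atf4*, from -0.33 to 0.36 for *Trib3*, from -1.10 to 0.066 for *Eif2ak2* and from -0.096 to 0.032 for *Hspa5*. *Ddit4* passed under all 15 alternatives, with log2 fold changes from -0.81 to -0.76. *Psat1* and *Stc2* each passed under 14, and *Phgdh* under 6. The causes were not tested.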
